A study of Homo sapiens with 4 samples.

Results

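The genes described here are the enzymes of cholesterol synthesis and the factors that control them through the sterol regulatory element binding proteins (SREBPs). There are 29 of them, listed by name in pathway order, and each was read from the brightest probe set whose platform annotation gives exactly 1 gene symbol. Of the 29, 27 had such a probe set, among 18132 genes that did. The squalene synthase gene FDFT1 and the lanosterol demethylase gene CYP51A1 had none and were not analysed here. The 2 probe sets that carry CYP51A1 together with a second symbol were left out.

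The cells were SCC-9, an established human line grown from a tongue squamous carcinoma. Those of the tested condition received 30 nM of miR-585-5p mimic, a synthetic double of that microRNA taken up by transient transfection. The control cells received the small RNA miR-NC, also at 30 nM. Cells of both groups were transfected 24 hours after seeding. RNA was taken 36 hours after transfection and hybridised to 4 PrimeView human expression arrays, 2 per condition. The comparison asks which transcripts change in cells given more miR-585-5p. Nothing in the labels ties the 2 arrays of a group to separate cultures. The p-values therefore cover the spread between these samples alone, and that spread may be technical. No probe set measures the transfected microRNA, whose level was therefore not checked.

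The mature microRNA is shown because it is the agent supplied. It is encoded at chr5:169263649-169263670 (minus strand, GRCh38.p14, RefSeq), and capitals mark its seed, bases 2 to 8.
hsa-miR-585-5p: cUAGCACAcagauacgcccaga

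Cholesterol is built from acetyl-CoA through mevalonate and isoprenoid diphosphates to squalene, which is closed to lanosterol and trimmed in many steps to cholesterol. SREBP precursors sit in the endoplasmic reticulum bound to the escort SCAP, and INSIG proteins hold that complex there while sterols are plentiful. When sterols run low, SCAP carries the precursor to the Golgi, where the proteases encoded by MBTPS1 and MBTPS2 cut it in turn and release a transcription factor that enters the nucleus and activates most genes of the pathway, including its own and INSIG1. SREBF2 encodes the form that acts mainly on cholesterol genes, and SREBF1 the forms that act mainly on fatty acid genes.

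Values are probe set intensities on the deposited scale, which the authors made with RMA, and changes are log2 of mimic over miR-NC with their SE. Median intensities of the arrays lay between 30.6 and 31.3, correlations across probe sets were 0.998 between the mimic arrays, 0.997 between the miR-NC arrays and 0.978 to 0.982 across groups. The number of arrays limits the precision. Background was taken from 20 control probe sets with no human target, the brightest at 16.8, and on every array each of the 27 genes read above it. All 9 measured markers of squamous epithelium were above background on every array, with summed intensities of 25592 and 25035 in the mimic group, against 23237 and 23839 in the miR-NC group. Single markers moved within that sum, CDH1 (log2 change -1.26) and ITGB4 (-1.11) falling and KRT14 (0.97) and EPCAM (0.59) rising. Above background on all 4 arrays were 1 of 6 fibroblast, 2 of 5 leukocyte and 2 of 4 endothelial markers, of which the leukocyte marker CD14 rose (0.68, limma adjusted p = 6.85e-04) and the endothelial marker KDR fell (-0.73, limma adjusted p = 0.00152). The part of other cells in the results was not tested, and the pan-leukocyte marker PTPRC was below background on all 4 arrays. The GAPDH ratio of 3′ to 5′ probe signal, a sign of RNA quality, was 1.11 on both mimic arrays, against 1.22 and 1.16 on the miR-NC arrays. The same ratio for ACTB was 14.3 on both mimic arrays, against 14.4 and 13.8 on the miR-NC arrays, far above 1 in both groups. The part of RNA quality in the results was not tested. RMA brings all arrays to 1 distribution, so a change in total RNA per cell would not show, and fewer cells expressing a gene and less of its RNA per cell cannot be told apart.

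Most enzymes of the pathway were lower with the mimic, while the second Golgi protease and INSIG2 were higher. Of the 27 genes, 17 fell and 7 rose at a limma adjusted p under 0.05, and 3 did not pass. Over all 14122 genes tested, 55.0% passed, 26.9% being lower and 28.1% higher, so the share of the 27 that fell, 63.0%, was above that of all genes, and the share that rose, 25.9%, was near it. A fall of at least 2-fold was found for 7 of the 27, against 3.41% of all genes, and a rise of at least 2-fold for 1, against 4.76%. The median log2 change was -0.43 over the 27 and -0.06 over all genes. Both mimic arrays lay on 1 side of both miR-NC arrays for 24 of the 27, against 79.4% of all genes. The genes were chosen with earlier results of these data known, so these comparisons with all genes are a description and not a test.

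The balance of directions depends on the scale. The 11 poly(A) spike probe sets, which read RNAs added to each sample, averaged 6.43 and 6.39 (log2) in the mimic group, against 5.97 and 6.15 in the miR-NC group, whose arrays were further apart. Setting the arrays to them lowers each log2 change by 0.35. On that scale 3 of the 27 genes rose (FDPS, INSIG2 and MBTPS2) and 20 fell, PMVK, HSD17B7 and SCAP among them. Of all genes called 16.4% were higher, against 51.1% on the deposited scale. The spike offset between the miR-NC arrays enters every gene alike, and the fit reads it as a spread measured many times over. Calls on that scale are therefore a description only. The 27 genes' median was -0.43 against -0.06 for all genes on the deposited scale, and -0.78 against -0.40 with the spikes. The gap of 0.37 is the same on both by construction, since the scaling shifts every gene by 1 amount. The spikes therefore do not test that gap. Without mimic replicate 2, 4 of the 27 rose and 14 fell.

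**Figure D1:**
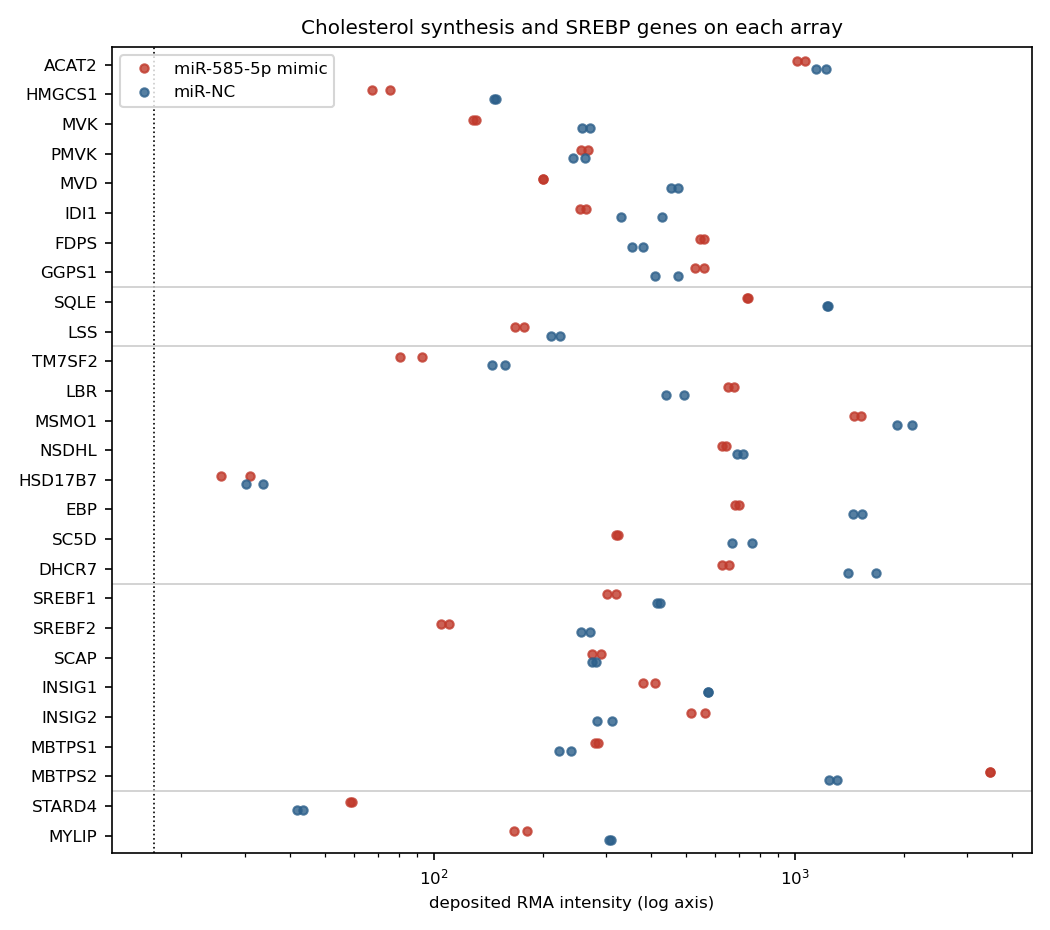
Deposited RMA intensity (log axis) of the 27 measured genes in pathway order, 1 point per array, the 2 miR-585-5p mimic arrays drawn above the 2 miR-NC arrays of each gene; the dotted line is the brightest control probe set with no human target (16.8). The groups lie apart for all genes except PMVK, HSD17B7 and SCAP, and MBTPS2 is the brightest gene on the mimic arrays.

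The early steps split. HMGCS1, which makes HMG-CoA, read 67.5 and 75.7 on the mimic arrays, against 147 and 148 on the miR-NC arrays. The mimic arrays were at about the same level as each other and well below both controls. The change was -1.05 ± 0.10 (log2, SE, n = 2 per group, limma adjusted p = 5.36e-06). A second HMGCS1 probe set read 70.4 and 76.7, against 96.0 and 107, and fell by 0.46, and the mean of both was at -0.75. MVK, mevalonate kinase, read 131 and 129 with the mimic, against 257 and 270.3 with miR-NC. MVD, the decarboxylase that yields isopentenyl diphosphate, read 200.4 and 200.5, against 452 and 473. MVK and MVD fell by 1.02 ± 0.08 and 1.21 ± 0.07 on the log2 scale (limma adjusted p = 1.30e-06 and 1.64e-07), and the second MVK probe set fell by 0.73. Between them in the pathway stands PMVK, phosphomevalonate kinase, which read 267 and 256 in the mimic group and 242 and 263 in the miR-NC group. Its groups overlapped, and the 95% interval of its log2 change ran from -0.11 to 0.22 (limma adjusted p = 0.571), so that a fall of the size seen for MVK or MVD lies outside it.

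ACAT2 and IDI1 were lower by less. ACAT2, the cytosolic thiolase that joins acetyl-CoA units, read 1010.3 and 1068 with the mimic, against 1145 and 1222 with miR-NC, a change of -0.19 ± 0.06 (limma adjusted p = 0.0152). Its call ended without either mimic array (-0.15 and -0.23) and without miR-NC replicate 2 (-0.14), and with the mean of its 3 probe sets it was at -0.08. IDI1, the isopentenyl diphosphate isomerase, read 264 and 254, against 329.5 and 428. The miR-NC arrays were far apart, and the change of -0.54 ± 0.11 (limma adjusted p = 0.00141) became -0.35 without miR-NC replicate 2. The other IDI1 probe set changed by -0.18 and did not pass, its mimic arrays (78.1 and 79.2) lying between the miR-NC arrays (74.3 and 106).

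The prenyl diphosphate synthases went the other way on the deposited scale. FDPS, which makes farnesyl diphosphate, the last intermediate shared by sterols and other isoprenoids, read 547 and 561 with the mimic, against 355 and 381 with miR-NC. GGPS1, which extends it to geranylgeranyl diphosphate for protein prenylation, read 529 and 561, against 409 and 474. For both genes the lower mimic array was above the higher miR-NC array. FDPS rose by 0.59 ± 0.06 and GGPS1 by 0.31 ± 0.08 (limma adjusted p = 1.85e-05 and 0.00612). The other probe sets had the same sign, FDPS at 0.61 and GGPS1 at 0.54 and 0.63, each past the threshold over probe sets. Both FDPS probe sets are of a kind that can cross-hybridise. GGPS1 was at 0.49 with the mean of its 3 probe sets and at 0.20 without miR-NC replicate 1. It did not pass without mimic replicate 2 (0.26) and was at -0.04 with the poly(A) spikes, where FDPS was at 0.25.

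In the squalene steps both measured genes fell. SQLE, squalene epoxidase, read 739 and 743 on the mimic arrays, against 1223 and 1236 on the miR-NC arrays, a change of -0.73 ± 0.05 (limma adjusted p = 7.04e-07). Of its 3 other probe sets 2 fell (-0.54 and -0.56), and 1 with possible cross-hybridisation did not pass (-0.05). With the mean of all 4, SQLE was at -0.47. LSS, which closes squalene epoxide to lanosterol, read 178 and 168, against 223 and 210.5, a change of -0.33 ± 0.08 (limma adjusted p = 0.00493). LSS did not pass without mimic replicate 2 (-0.29) or without cross-hybridising probe sets (-0.25).

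The last 3 sterol enzymes fell more than 2-fold, as MVD, MVK and HMGCS1 did. EBP, the sterol isomerase, read 701 and 685 with the mimic, against 1446 and 1533 with miR-NC. SC5D, the sterol desaturase that follows it, read 323 and 320.2, against 669 and 761. DHCR7, which reduces the final double bond in one route to cholesterol, read 655 and 629, against 1407 and 1678. For all 3 genes the mimic arrays lay close together and far below both miR-NC arrays. The log2 changes were -1.10 ± 0.05, -1.15 ± 0.07 and -1.26 ± 0.08 (limma adjusted p = 6.06e-08, 3.35e-07 and 2.70e-07). All 3 other SC5D probe sets fell, by 1.05, 1.08 and 1.98 on the log2 scale, the last being the value of the gene without cross-hybridising probe sets. The second EBP probe set was at -1.10, and DHCR7 has 1 probe set.

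The 3 enzymes that strip methyl groups ahead of EBP were lower by less or did not pass. MSMO1, which removes methyl groups from the sterol ring, read 1461 and 1520.2 with the mimic, against 1918 and 2104 with miR-NC, a fall of 0.43 ± 0.06 on the log2 scale (limma adjusted p = 6.06e-05). Of its other probe sets above background, 1 fell by 0.67, its value without cross-hybridising probe sets, and 1 was at -0.21 and did not pass (adjusted p = 0.198 over probe sets). With the mean of all 4 the gene was at -0.31. NSDHL and HSD17B7 act with it. NSDHL read 644 and 629, against 690.4 and 719.6, and its change of -0.15 ± 0.06 (limma adjusted p = 0.0477) ended in 8 of 15 alternatives, among them leaving out either mimic array (-0.16 and -0.13) or miR-NC replicate 2 (-0.12). HSD17B7, the dimmest of the genes, read 25.8 and 30.9, against 33.7 and 30.1, with overlapping groups and a 95% interval of -0.48 to 0.13 (limma adjusted p = 0.309).

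The 2 sterol reductases that can act on the product of lanosterol demethylation moved in opposite directions. TM7SF2, an enzyme of the endoplasmic reticulum, read 92.9 and 80.7 in the mimic group, against 145 and 158 in the miR-NC group. LBR, an inner nuclear membrane protein that also binds lamin B and chromatin, read 678 and 653, against 439 and 491. TM7SF2 fell by 0.81 ± 0.10 and LBR rose by 0.52 ± 0.07 on the log2 scale (limma adjusted p = 5.26e-05 and 7.78e-05). All 4 other TM7SF2 probe sets fell, by 0.35 to 0.66, and their mean with the brightest was -0.53. All 5 TM7SF2 probe sets are of a kind that can cross-hybridise, so the gene has no value without such probe sets. The second LBR probe set was not above background on every array. LBR did not pass with the poly(A) spikes (0.17) or without cross-hybridising probe sets (0.36).

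**Figure D2:**
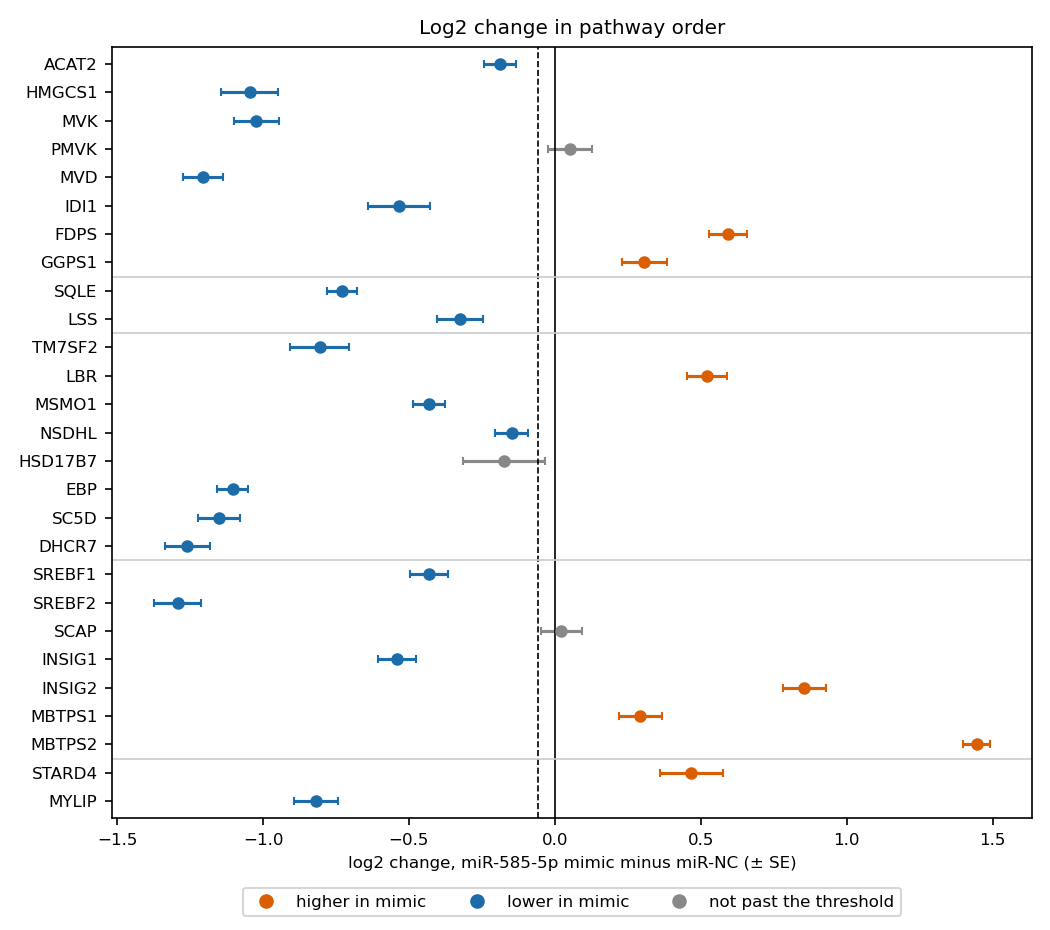
Log2 change (miR-585-5p mimic minus miR-NC, points, with SE bars, 2 arrays per group) of the 27 genes in pathway order, grey lines separating mevalonate, squalene, late sterol, SREBP control and the last 2 genes; the dashed line is the median of all genes tested (-0.06). Changes run from -1.29 (SREBF2) to 1.44 (MBTPS2), and the rises lie at FDPS, GGPS1, LBR, INSIG2, both proteases and STARD4.

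Among the control factors, SREBF2 had the deepest fall of the 27 genes. It read 110.3 and 105 on the mimic arrays, against 271 and 256 on the miR-NC arrays, with the mimic arrays close together and far below both controls. The change was -1.29 ± 0.08 (limma adjusted p = 3.49e-07), lower than that of all but 1.61% of the genes tested, and its other probe sets were at -1.06 and -0.84. SREBF1 read 320.1 and 302 with the mimic, against 416 and 423 with miR-NC, a change of -0.43 ± 0.07 (limma adjusted p = 2.36e-04). It was at -0.67 with the mean of its 3 probe sets. The escort SCAP read 289.8 and 274, against 281 and 274, and the 95% interval of its change was -0.13 to 0.18 (limma adjusted p = 0.805).

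The INSIG genes moved in opposite directions. INSIG1, itself a target of SREBPs, read 380.1 and 409.8 with the mimic, against 574 on both miR-NC arrays. INSIG2, which retains the same complex but is known for not depending on SREBPs in this way, read 515 and 563, against 284 and 312. In neither gene did the groups overlap. INSIG1 fell by 0.54 ± 0.06 and INSIG2 rose by 0.85 ± 0.07 on the log2 scale (limma adjusted p = 3.43e-05 and 3.62e-06). The 2 other probe sets of each gene passed in the same direction, at -0.49 and -0.73 for INSIG1 and at 0.52 and 0.76 for INSIG2.

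The second protease of the Golgi, MBTPS2, had the highest rise. It read 3464 and 3473 on the mimic arrays, against 1239 and 1309.8 on the miR-NC arrays. The gene lies at chrX:21839617-21885423 (GRCh38.p14) and rose 2.72-fold (log2 1.44 ± 0.05, limma adjusted p = 4.46e-09). A second, dimmer probe set read 72.2 and 80.0, against 34.6 and 42.8, and rose by 0.98. MBTPS1, the protease that cuts first, read 279.5 and 285, against 239 and 222, a change of 0.29 ± 0.07 (limma adjusted p = 0.00609). Its call ended without mimic replicate 1 (0.31) and without mimic replicate 2 (0.28), its change was -0.05 with the poly(A) spikes, and its second probe set did not pass (0.10).

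STARD4, a soluble carrier that moves sterols between membranes, read 58.4 and 59.4 with the mimic, against 41.9 and 43.3 with miR-NC. It rose by 0.47 ± 0.11 on the log2 scale (limma adjusted p = 0.00371), though not without mimic replicate 2 (0.46) or with the poly(A) spikes (0.12). A second probe set read 32.1 and 28.0, against 11.2 and 12.2, the miR-NC arrays being below the background of 16.8. MYLIP, a ubiquitin ligase that sends lipoprotein receptors to degradation, read 167 and 182, against 309 and 305, a fall of 0.82 ± 0.08 on the log2 scale (limma adjusted p = 5.92e-06). Another MYLIP probe set of like brightness fell by 0.48 (196.9 and 191 with the mimic, against 258 and 283 with miR-NC). It became the brightest when either miR-NC array was left out, where the gene was at -0.55 (replicate 1) and -0.42 (replicate 2), and the mean of its 3 probe sets was at -0.49.

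Probe sets of 1 gene largely shared their direction. The 27 genes had 71 probe sets, 63 of them above background on every array. The 24 genes that passed had 33 other probe sets above background, of which 32 had the sign of the brightest one. Of the 33, 25 passed in its direction and 0 passed in the opposite direction (limma, adjusted over 34505 probe sets). Over all 34505 probe sets tested, 17589 passed in either direction. How often probe sets of other genes share their direction was not analysed here. The 1 of opposite sign belonged to ACAT2 (0.10). Probe sets of a gene share its transcripts and are not replicates.

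**Figure D3:**
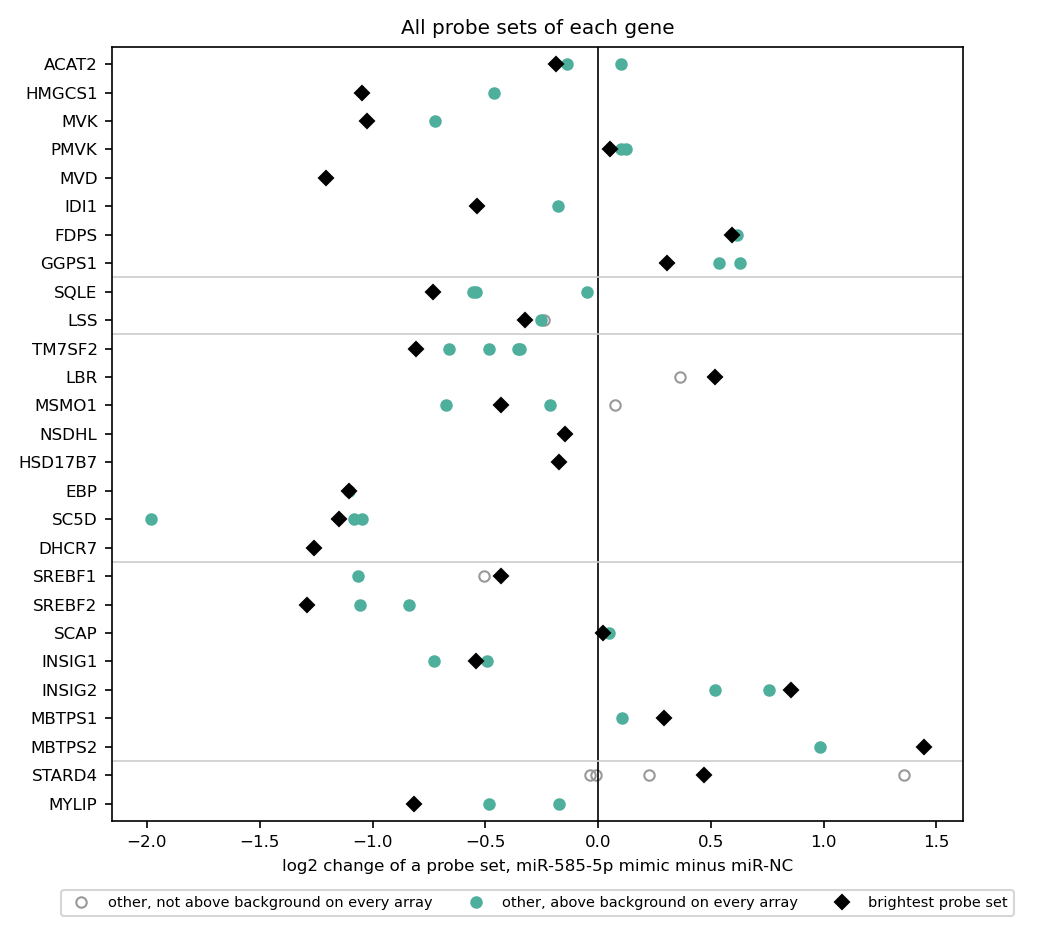
Log2 change (miR-585-5p mimic minus miR-NC) of each of the 71 probe sets of the 27 genes; diamonds are the brightest probe set of a gene, filled circles other probe sets above background on all 4 arrays, open circles those that were not. SC5D spans -1.98 to -1.05 and SREBF2 -1.29 to -0.84, with no probe set of either above 0.

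Promoters are shown because SREBPs are known to act beside the factor NF-Y, which binds CCAAT. Whether either had a part in the changes was not tested. RefSeq promoters (GRCh38.p14, 250 bases before to 50 after the start site) were found for 26 of the 29 genes. Letters were searched on both strands for CCAAT, for the sterol regulatory element core TCACNCCAC, for GGGCGG (an SP1 box) and for CACGTG (an E-box), and no matches of different motifs overlapped. The lines give the 180 bases before the start site of 5 genes that fell (SREBF2, HMGCS1, MVD, SC5D and INSIG1) and 3 that rose (FDPS, INSIG2 and MBTPS2), 5′ to 3′ on the gene's strand. HMGCS1, SC5D and INSIG2 have 2 listed promoters each. The promoter with more CCAAT and core matches is shown, or at equal counts the one at the lower coordinate. The other HMGCS1 promoter holds GGGCGG but no CCAAT. Capitals mark CCAAT, which reads ATTGG on the other strand, and the sterol regulatory element core.
SREBF2: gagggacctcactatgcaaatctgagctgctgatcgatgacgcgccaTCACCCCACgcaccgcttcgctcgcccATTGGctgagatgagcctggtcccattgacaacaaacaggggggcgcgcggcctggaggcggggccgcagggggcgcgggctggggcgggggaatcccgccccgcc
HMGCS1: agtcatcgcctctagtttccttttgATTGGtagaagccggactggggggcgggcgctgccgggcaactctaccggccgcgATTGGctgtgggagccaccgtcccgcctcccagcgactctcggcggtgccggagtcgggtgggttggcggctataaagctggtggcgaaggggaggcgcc
MVD: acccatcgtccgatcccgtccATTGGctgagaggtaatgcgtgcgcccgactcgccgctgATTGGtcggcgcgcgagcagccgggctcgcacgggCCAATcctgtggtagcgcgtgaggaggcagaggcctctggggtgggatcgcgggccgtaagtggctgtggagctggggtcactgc
SC5D: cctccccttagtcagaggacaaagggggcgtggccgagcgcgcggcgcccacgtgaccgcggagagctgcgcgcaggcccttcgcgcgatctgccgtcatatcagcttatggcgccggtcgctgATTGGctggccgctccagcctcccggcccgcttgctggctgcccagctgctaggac
INSIG1: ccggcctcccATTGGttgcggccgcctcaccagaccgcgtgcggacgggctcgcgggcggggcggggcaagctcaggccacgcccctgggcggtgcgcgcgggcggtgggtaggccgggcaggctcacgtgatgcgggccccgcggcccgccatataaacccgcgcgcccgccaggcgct
FDPS: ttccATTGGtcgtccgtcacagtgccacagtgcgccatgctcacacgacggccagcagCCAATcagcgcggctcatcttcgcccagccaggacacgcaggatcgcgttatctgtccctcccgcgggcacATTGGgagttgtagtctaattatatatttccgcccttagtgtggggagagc
INSIG2: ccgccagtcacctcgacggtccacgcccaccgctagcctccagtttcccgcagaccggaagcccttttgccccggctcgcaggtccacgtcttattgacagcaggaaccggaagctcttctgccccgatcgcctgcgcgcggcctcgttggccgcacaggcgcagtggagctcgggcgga
MBTPS2: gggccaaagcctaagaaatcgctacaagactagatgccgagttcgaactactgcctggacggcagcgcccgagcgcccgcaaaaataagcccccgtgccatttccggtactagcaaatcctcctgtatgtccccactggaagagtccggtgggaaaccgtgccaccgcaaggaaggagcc
The stretches lie at chr22:41832925-41833104 (plus strand) for SREBF2, chr5:43313413-43313592 (minus strand) for HMGCS1, chr16:88663092-88663271 (minus strand) for MVD, chr11:121292591-121292770 (plus strand) for SC5D, chr7:155297698-155297877 (plus strand) for INSIG1, chr1:155308686-155308865 (plus strand) for FDPS, chr2:118088291-118088470 (plus strand) for INSIG2 and chrX:21839437-21839616 (plus strand) for MBTPS2.

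A CCAAT box stood in the promoters of 14 of the 15 genes that fell and had a promoter in the table, the exception being SREBF1. It stood in 3 of the 7 that rose (FDPS, GGPS1 and STARD4) and in 1 of the 3 that did not pass (HSD17B7). The share was 39.7% over all 27305 genes of the table (34.6% of single promoters), and among all genes tested it was 43.7% of those that rose, 43.0% of those that fell and 40.5% of the rest. INSIG2, MBTPS1, MBTPS2 and LBR, which rose, had none in these windows. The sterol regulatory element core matched in 1 of the 26 genes, SREBF2, as TCACCCCAC beginning 133 bases before the start site, with a CCAAT box beginning 106 bases before it. That core was found in 1.39% of all genes. Only this form of the letters was searched, so elements that differ from it were not counted. GGGCGG was found in 22 of the 26 genes, against 48.3% of all genes in the table and 75.9% of the tested genes that fell. CACGTG was found in 4 (15.4%), LSS, SC5D, SCAP and INSIG1, against 8.77% of all genes in the table. Among all genes tested it was found in 13.9% of those that rose, 12.5% of those that fell and 10.2% of the rest, so the 15.4% was near these shares. A match is a description of the sequence and not of binding, and a gene with several listed promoters had more chances of a match.

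**Figure D4:**
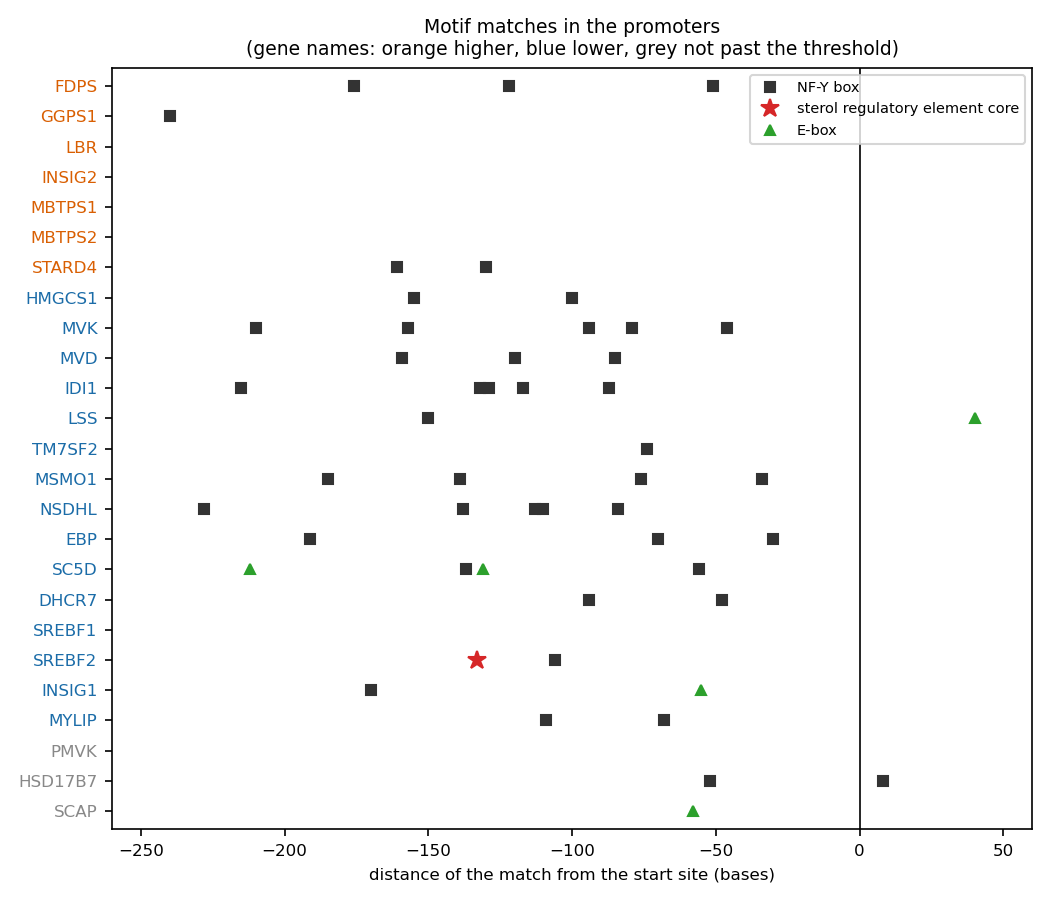
Matches to the NF-Y box, the sterol regulatory element core and the E-box by distance from the start site (bases, matches of a gene's several promoters drawn on 1 line), with genes that rose on top (orange), then those that fell (blue) and those not past the threshold (grey). Of the genes that fell, SREBF1 has no match, and 4 of the 7 genes that rose have none.

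Lists of neighbouring pathways, chosen with earlier results of these data known, place these changes among other lipid genes. Of 14 fatty acid synthesis genes 13 were tested, and 9 fell (69.2%, against 26.9% of all genes) and 1 rose (7.69%, against 28.1%). The median log2 change was -0.40, against -0.06 over all genes. ACSS2, which activates acetate, read 132 and 128 with the mimic, against 582 and 587 with miR-NC (log2 change -2.17 ± 0.07, limma adjusted p = 4.14e-09). Fatty acid synthase (FASN) and the desaturase FADS1 also fell, by 1.39 and 0.98 on the log2 scale. The gene that rose was GPAM, which starts glycerolipid synthesis, with 644 and 605, against 138 and 149 (log2 change 2.12 ± 0.07, limma adjusted p = 7.36e-09).

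Genes that use farnesyl or geranylgeranyl diphosphate outside sterol synthesis changed both ways. Of 13 tested of 16, 6 rose (46.2%, against 28.1% of all genes) and 2 fell (15.4%, against 26.9%), with a median of 0.10 on the deposited scale, while with the poly(A) spikes 2 rose and 7 fell, with a median of -0.24. NUS1, a subunit of the dolichol synthase, read 274 and 293 with the mimic, against 145 and 146 with miR-NC, and rose by 0.96 ± 0.08 on the log2 scale. PDSS1, which makes the ubiquinone side chain, rose by 0.78 ± 0.09. The prelamin protease ZMPSTE24 read 299 and 349.8, against 802 and 869.6, and fell by 1.37 ± 0.08, while the Rab geranylgeranyl transferase subunit RABGGTB fell by 0.87 ± 0.05. Each of these 4 had a limma adjusted p of 3.23e-05 or less.

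Genes of sterol uptake, transport, storage and export went both ways. Of 21 tested of 24, 7 rose (33.3%, against 28.1% of all genes) and 8 fell (38.1%, against 26.9%), with a median of -0.09, close to the -0.06 of all genes. With the poly(A) spikes 3 rose and 13 fell. NCEH1, which hydrolyses cholesterol esters, read 151 and 166 with the mimic, against 42.3 and 59.2 with miR-NC, and rose by 1.66 ± 0.14 on the log2 scale. The sterol exporter ABCG1 rose by 0.68 ± 0.06 and the lipid transfer protein OSBPL8 by 0.60 ± 0.08. The oxysterol receptor gene NR1H3 fell by 0.63 ± 0.12. Each of these 4 had a limma adjusted p of 9.92e-04 or less.

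Factors that degrade, retain or export the sterol-sensing machinery passed in 17 of 19 tested of 20 (89.5%, against 55.0% of all genes). On the deposited scale 11 rose (57.9%, against 28.1%) and 6 fell (31.6%, against 26.9%), with a median of 0.23. When each gene's probe sets were averaged, 7 rose and 5 fell, with a median of 0.06, against -0.05 over all genes. With the poly(A) spikes 3 rose and 8 fell, with a median of -0.12. NPLOC4, a cofactor in the extraction of ubiquitinated proteins from the endoplasmic reticulum, read 381 and 369 with the mimic, against 783 and 819 with miR-NC, and fell by 1.09 ± 0.06 on the log2 scale. PAQR3, a Golgi protein known to anchor SCAP, rose by 0.81 ± 0.13, the vesicle coat GTPase SAR1B by 0.63 ± 0.09 and ERLIN1, a membrane protein that restrains SREBP activation, by 0.61 ± 0.06. Each of these 4 had a limma adjusted p of 3.76e-04 or less. Without mimic replicate 2, 7 of the list rose and 4 fell.

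**Figure D5:**
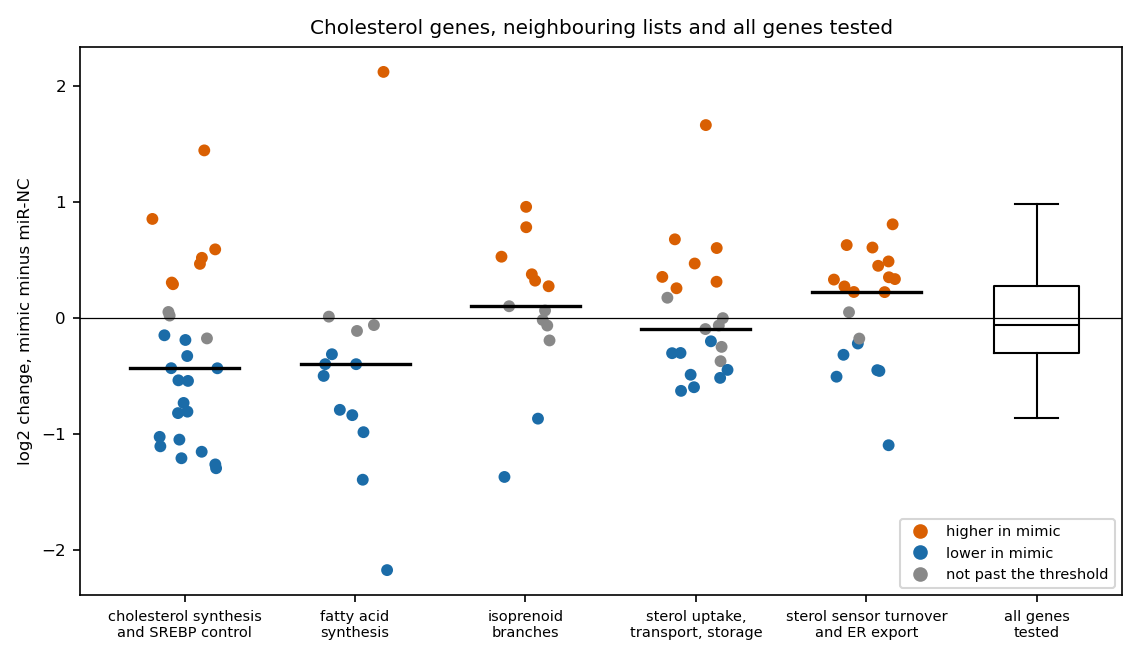
Log2 change (miR-585-5p mimic minus miR-NC) of the 27 cholesterol and SREBP genes and of 4 neighbouring lists, 1 point per gene with a bar at the median, beside all 14122 genes tested (box, quartiles; whiskers, the 5th and 95th percentiles). Medians are -0.43 for the cholesterol and SREBP genes, -0.40 for fatty acid synthesis, 0.10 for isoprenoid branches, -0.09 for sterol transport and 0.23 for sensor turnover and export on the deposited scale. With the poly(A) spikes those for isoprenoid branches and sensor turnover are -0.24 and -0.12. With probe sets averaged, that for sensor turnover is 0.06.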

How the data were processed

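Total RNA was measured on 4 arrays, 2 per condition, with groups taken from the sample titles. The deposited intensity values were made by the authors with RMA, per the submitters' processing notes. They were read as linear RMA output, and their log2 was taken. The version, annotation and any floor are not given in the sources used here. The annotation gives 1 symbol to 44988 of 49395 probe sets, several to 1832 and none to 2473, and 102 are controls. For the 18132 genes so named, the probe set with the highest mean log2 was used. Genes above the 30th percentile of probe sets (intensity 12.0), 14122 in all, were fitted with limma 3.58.1 in R 4.3.3 (mean-variance trend, Benjamini-Hochberg adjustment over all genes tested, threshold 0.05, two-sided). The fit had 2 residual and 8.35 prior degrees of freedom. Tested on simulated data (14122 genes, 200 of them changed), it recovered 18% of the 1.25-fold changes, 62% at 1.5-fold and 100% at 2-fold. It made 148 calls there, 8 of them false. In the data 55.0% of genes passed, so the adjusted threshold was stricter in the simulation than here. The simulated rates therefore do not measure the recovery in this comparison. The members and gene lists, chosen with earlier results of these data known, are named whole (members) or by up to 4 called genes with the largest change (lists). Alternatives covered normalization, filters, probe set choice, the estimate of the spread, the replicate number, the threshold and leaving out each array. Sites for the seed in transcripts were not analysed here. Promoter and microRNA sequences come from RefSeq tables (GRCh38.p14).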

Additional observations from a re-analysis of the deposited data

How the results depend on the processing

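Of the 24 genes that passed, 16 kept their direction and passed in all the alternatives run, and the other 8 (ACAT2, IDI1, GGPS1, LSS, LBR, NSDHL, MBTPS1 and STARD4) lost the call in at least 1. With the poly(A) spikes, 3 genes were higher, the median log2 change was -0.78 and 11 genes of the sterol-sensing degradation and export list were called, and PMVK was at -0.29, GGPS1 at -0.039, SCAP at -0.32 and MBTPS1 at -0.054, each of opposite sign. PMVK, SCAP and HSD17B7 (-0.52), which had not passed, then passed as lower. Calls with the spikes are a description only, since the fit reads the offset between the miR-NC arrays as a spread measured many times over. Leaving out 1 array at a time, SCAP ran from -0.018 to 0.073 and PMVK from -0.0050 to 0.11, and SCAP was at -0.017 with a second quantile normalization. The median was -0.47 with a second quantile normalization, -0.31 when each gene's probe sets were averaged and -0.34 without cross-hybridising probe sets, which left 24 genes and gave no value for FDPS, TM7SF2 and HSD17B7. Leaving out 1 array at a time gave 4 to 7 genes higher, 14 to 17 lower, medians of -0.44 to -0.36, and 11 to 18 called genes of the degradation and export list. With the replicate number as a block 7 genes were higher and 16 lower, NSDHL being at an adjusted p = 0.0521, and the other calls among the 27 were the same. The deviations of same-numbered arrays correlated at 0.08, and the labels do not say that the numbers mark a pair. The causes were not tested. Of the 71 probe sets, 8 were not above background on every array, and none of these was the brightest of its gene (LSS, LBR, MSMO1, SREBF1 or STARD4).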
